A study of Homo sapiens with 6 samples.

Results

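GATA2, LMO2, TAL1, LYL1, FLI1, ERG, HHEX and MYB are transcription regulators that work in blood stem and progenitor cells, and the H3K27ac peaks around these 8 genes, of 20033 protein-coding genes annotated on the main chromosomes, are described here. The genes were chosen by name, with earlier results of these data known. For each gene, the peaks were taken in a region that held the gene body with 50 kb on each side, and in windows that reached 2500 bases to each side of every annotated transcription start site (TSS). The number of peaks, their width and the bases they covered were counted in each library.

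Acetylated lysine 27 of histone H3 (H3K27ac) marks active promoters and enhancers, and was mapped by CUT&Tag, in which an antibody tethers a transposase that cuts and tags the nearby DNA. The study asked how knockdown of ANP32B, a nuclear acidic protein that binds histones, affects acute myeloid leukemia (AML) cells. The groups were Kasumi-1 NC, Kasumi-1 shANP32B, MV4-11 NC and MV4-11 shANP32B, where NC stands for the control short hairpin RNA of the study's methods (the labels call these cells untreated) and shANP32B for a hairpin against ANP32B. Both are established human AML lines, Kasumi-1 with a RUNX1::RUNX1T1 fusion and MV4-11 with a KMT2A fusion, and by the methods the hairpins were introduced into both lines stably and the cells selected with puromycin. Each group had 1 library and 1 peak list, called after replicates were merged, so that no value has a replicate error, no test was made and a fold is a description of the libraries compared. The lists hold positions only, so that the depth and the height of the peaks are unknown. Another 2 libraries, with IgG, were not analysed here.

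In blood stem cells, GATA2, LMO2 and either TAL1 or LYL1 act in complexes on DNA that holds GATA motifs and E-boxes, while FLI1 and ERG bind ETS motifs and the same enhancers are often occupied by RUNX1. Many of these factors bind enhancers of their own genes and of each other. HHEX, a homeobox repressor, and MYB, an activator that recruits histone acetyltransferases, belong to the same progenitor state, and several of the 8 genes are activated in leukemia.

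The lists held between 22136 and 24523 peaks. Peaks spanned 32.7 Mb of the genome for Kasumi-1 NC, 33.7 Mb for Kasumi-1 shANP32B, 27.9 Mb for MV4-11 NC and 23 Mb for MV4-11 shANP32B. The total covered length after knockdown was thus 1.03 times that of NC in Kasumi-1 and 0.825 times in MV4-11, a log2 shift of 0.04 and -0.28, and ratios divided by these totals are called scaled below. At ANP32B itself the TSS windows had 3961, 3926, 3909 and 2631 covered bases in the same order of libraries, which does not report on the RNA that the hairpin targets. Of 6 myeloid markers (MPO, CD33, CSF3R, SPI1, CEBPA and LYZ), 4, 4, 4 and 2 had a peak in their TSS windows, while MPO had none in any library. The summed level of the myeloid markers was 9895, 10003, 6890 and 3607 bases. None of 3 T cell markers or 3 megakaryocyte markers had a peak, whereas 2, 2, 2 and 1 of 3 B cell markers did, and 1 erythroid marker (EPOR) and 1 fibroblast marker (COL1A1) of 3 each had one in both Kasumi-1 libraries. The part of these levels in the results was not tested. In bulk libraries, fewer cells with the mark and less of the mark per cell cannot be told apart.

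Sequences are shown for the elements on which the description below turns: 3 elements with a peak in all 4 libraries and 4 start regions with or without peaks. The elements are windows of 300 bases in the centre of the segment common to the 4 lists, read from hg38 on the plus strand. Promoters are the 250 bases before a RefSeq start (GRCh38.p14), on the strand of the gene. Of the 8 genes, 6 were in the promoter table, with 11 promoters, and LMO2 and FLI1 were not. Capitals mark motif matches on either strand. The GATA motif was searched as AGATAA and as its variant TGATAA. The E-box was searched as CAGCTG and as its variant CAGATG. The ETS motif was searched as AGGAAGT and as its variant CGGAAGT. The RUNX motif was searched as TGTGGT and as the variant TGCGGT of that motif.
GATA2 upstream element, chr3:128524010-128524309: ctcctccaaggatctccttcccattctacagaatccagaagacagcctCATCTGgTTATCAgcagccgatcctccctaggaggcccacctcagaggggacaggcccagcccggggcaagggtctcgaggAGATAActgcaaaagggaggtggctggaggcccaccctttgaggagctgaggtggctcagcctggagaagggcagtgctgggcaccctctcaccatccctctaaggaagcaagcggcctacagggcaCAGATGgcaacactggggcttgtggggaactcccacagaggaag
FLI1 intron 1 element, chr11:128716930-128717229: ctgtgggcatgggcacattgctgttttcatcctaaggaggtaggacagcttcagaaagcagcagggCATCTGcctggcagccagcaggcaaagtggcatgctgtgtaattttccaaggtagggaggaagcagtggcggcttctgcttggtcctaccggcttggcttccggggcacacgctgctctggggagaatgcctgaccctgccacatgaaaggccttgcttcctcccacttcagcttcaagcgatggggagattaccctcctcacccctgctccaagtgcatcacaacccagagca
ERG intron 9 element, chr21:38384139-38384438: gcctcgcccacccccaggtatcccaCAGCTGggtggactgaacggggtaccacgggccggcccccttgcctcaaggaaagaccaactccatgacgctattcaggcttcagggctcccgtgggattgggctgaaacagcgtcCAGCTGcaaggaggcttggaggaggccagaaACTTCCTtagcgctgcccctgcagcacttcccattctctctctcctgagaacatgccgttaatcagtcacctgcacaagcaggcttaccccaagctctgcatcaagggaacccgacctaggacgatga
TAL1 promoter at the outer start, chr1:47232336-47232585, minus strand: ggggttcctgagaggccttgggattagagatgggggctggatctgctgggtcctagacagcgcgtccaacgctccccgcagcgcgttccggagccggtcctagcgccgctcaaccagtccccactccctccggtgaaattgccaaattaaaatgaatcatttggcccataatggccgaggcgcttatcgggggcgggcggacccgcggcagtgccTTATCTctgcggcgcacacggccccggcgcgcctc
TAL1 promoter at the inner start, chr1:47231716-47231965, minus strand: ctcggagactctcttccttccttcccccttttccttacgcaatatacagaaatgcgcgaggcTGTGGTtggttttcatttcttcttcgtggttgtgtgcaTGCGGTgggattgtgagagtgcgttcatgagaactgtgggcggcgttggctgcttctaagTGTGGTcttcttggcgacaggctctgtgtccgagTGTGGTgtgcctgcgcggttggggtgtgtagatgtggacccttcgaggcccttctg
ERG canonical promoter, chr21:38498478-38498727, minus strand: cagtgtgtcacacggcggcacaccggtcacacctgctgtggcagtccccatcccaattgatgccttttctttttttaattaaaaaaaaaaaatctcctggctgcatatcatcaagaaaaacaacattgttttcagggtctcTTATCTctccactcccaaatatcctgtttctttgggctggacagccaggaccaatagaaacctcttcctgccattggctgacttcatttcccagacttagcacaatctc
HHEX promoter, chr10:92689705-92689954, plus strand: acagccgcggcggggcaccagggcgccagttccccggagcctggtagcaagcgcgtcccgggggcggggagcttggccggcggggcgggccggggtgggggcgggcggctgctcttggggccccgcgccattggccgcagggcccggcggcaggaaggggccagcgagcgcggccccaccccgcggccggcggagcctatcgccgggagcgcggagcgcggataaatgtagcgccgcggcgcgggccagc

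The GATA2 upstream element held 2 GATA and 2 E-box matches in 300 bases, with 60.3% GC. The FLI1 element in intron 1 had 1 E-box match, and the ERG element in intron 9 had 2 E-box and 1 ETS match. Neither TAL1 promoter, and not the canonical ERG promoter, had a base under a peak in any library, although the outer TAL1 promoter and the ERG promoter held 1 GATA match each and the inner TAL1 promoter 4 RUNX matches. The HHEX promoter, with 81.2% GC, had no match. It lay wholly under a peak in both Kasumi-1 libraries (250 of 250 bases) and under none in MV4-11, where the peak started past the TSS. That TSS is at base 92689955, and the MV4-11 peaks started at 92689956 in NC and at 92690042 after knockdown. On the MV4-11 side the contrast thus rests on peak edges close to the TSS, while both Kasumi-1 peaks started at 92688739, upstream of the whole promoter. Over 14 windows common to the 4 lists in the member regions, GATA was in 4, E-box in 6, ETS in 1 and RUNX in 5. Among all 5295 such windows away from canonical starts, the shares were 13.9%, 37.2%, 14.9% and 28.9%, and in 21613 promoters 11.2%, 22.1%, 13.6% and 15.7%. The composite of an E-box (CANNTG) and GATAA set 9 bases apart was in 0 of the 14 windows and in 0.132% of all windows. These matches are a description of letters and do not show binding.

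GATA2 (ENSG00000179348, chr3:128479427-128493201, minus strand) encodes a zinc finger factor that stem cells need for their maintenance. Its region held 3 peaks in Kasumi-1 NC, 3 in Kasumi-1 shANP32B, 2 in MV4-11 NC and 1 in MV4-11 shANP32B. The covered bases were 3811, 4337, 2525 and 1534 in that order, so that both MV4-11 libraries were below both Kasumi-1 libraries. The largest element, whose sequence is given above, lay 30.7 kb upstream of the canonical start and had 2101, 2315, 1985 and 1534 covered bases. An element 39.6 kb upstream was covered in Kasumi-1 alone, with 673 bases in NC and 1201 bases after knockdown. The third lay in intron 1, 3.5 kb past the canonical start and over the start of the antisense transcript GATA2-AS1. It had 1037, 821, 540 and 0 bases, the last in MV4-11 shANP32B. The canonical start had no covered base within 2500 bases in any library, and of 10 GATA2 starts only 1, in MV4-11 NC, was under a peak. By contrast, the windows of LMO2, LYL1, FLI1, HHEX and MYB were covered in all 4 libraries.

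TAL1 (ENSG00000162367, chr1:47216290-47232225, minus strand), a basic helix-loop-helix factor of stem, erythroid and megakaryocytic cells, had 0 peaks in its region of 115936 bases in every library. This covers the 50 kb on both sides, in which the start of PDZK1IP1 also lies. Of all protein-coding genes, 3975 (19.8%) had no peak in their region in any library. With 100 kb on each side, the NC libraries had 2585 covered bases at TAL1 in Kasumi-1 and 1535 in MV4-11. LYL1, the paralog of TAL1, was at the other extreme.

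LYL1 (ENSG00000104903, chr19:13099033-13103161, minus strand) had its 3 starts under a peak in all 4 libraries. In both Kasumi-1 libraries a single peak, 11193 bases wide in NC and 11280 bases after knockdown, spanned the whole gene and all 5438 bases of its windows. These were the 39th widest peaks of their lists. In MV4-11 the same stretch was covered by 4 peaks with 7434 bases in NC and by 3 peaks with 4783 bases after knockdown. The window bases in MV4-11 were 4168 in NC and 4051 after knockdown, hence the loss of covered bases lay mostly outside the windows. Relative to their length, the LYL1 windows ranked at the 100, 100, 99.9 and 99.9 percentile of all genes. The LYL1 region also held the starts of IER2, NACC1, STX10 and TRMT1. Of the 24171, 23112, 14962 and 9224 covered bases of the region, 11181, 11006, 7457 and 4441 lay in the windows of these other genes.

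LMO2 (ENSG00000135363, chr11:33858576-33892076, minus strand) encodes a LIM-domain bridge that joins the helix-loop-helix and GATA proteins. Its region held 15, 19, 7 and 8 peaks with 15745, 17325, 12045 and 10915 covered bases, and both Kasumi-1 libraries were above both MV4-11 libraries. The element at the canonical start had similar widths in all libraries, with 3727, 3957, 3989 and 3797 bases. By contrast, the element over the inner starts, centred 21.6 kb past the canonical start, had 3877, 3920, 2728 and 1478 bases and was lowest after knockdown in MV4-11. The number of LMO2 starts under a peak was 6, 5, 5 and 3 of 6. An upstream element at 39.2 kb was wider in MV4-11, with 2101 and 2134 bases in Kasumi-1 NC and shANP32B and 3201 and 2840 bases in MV4-11 NC and shANP32B. Of 18 LMO2 elements, 5 were in all libraries and 5 in both Kasumi-1 libraries alone, while none was in both MV4-11 libraries alone. The Kasumi-1 elements were narrow, at most 806 bases, and 4 of them lay in intron 1.

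**Figure D1:**
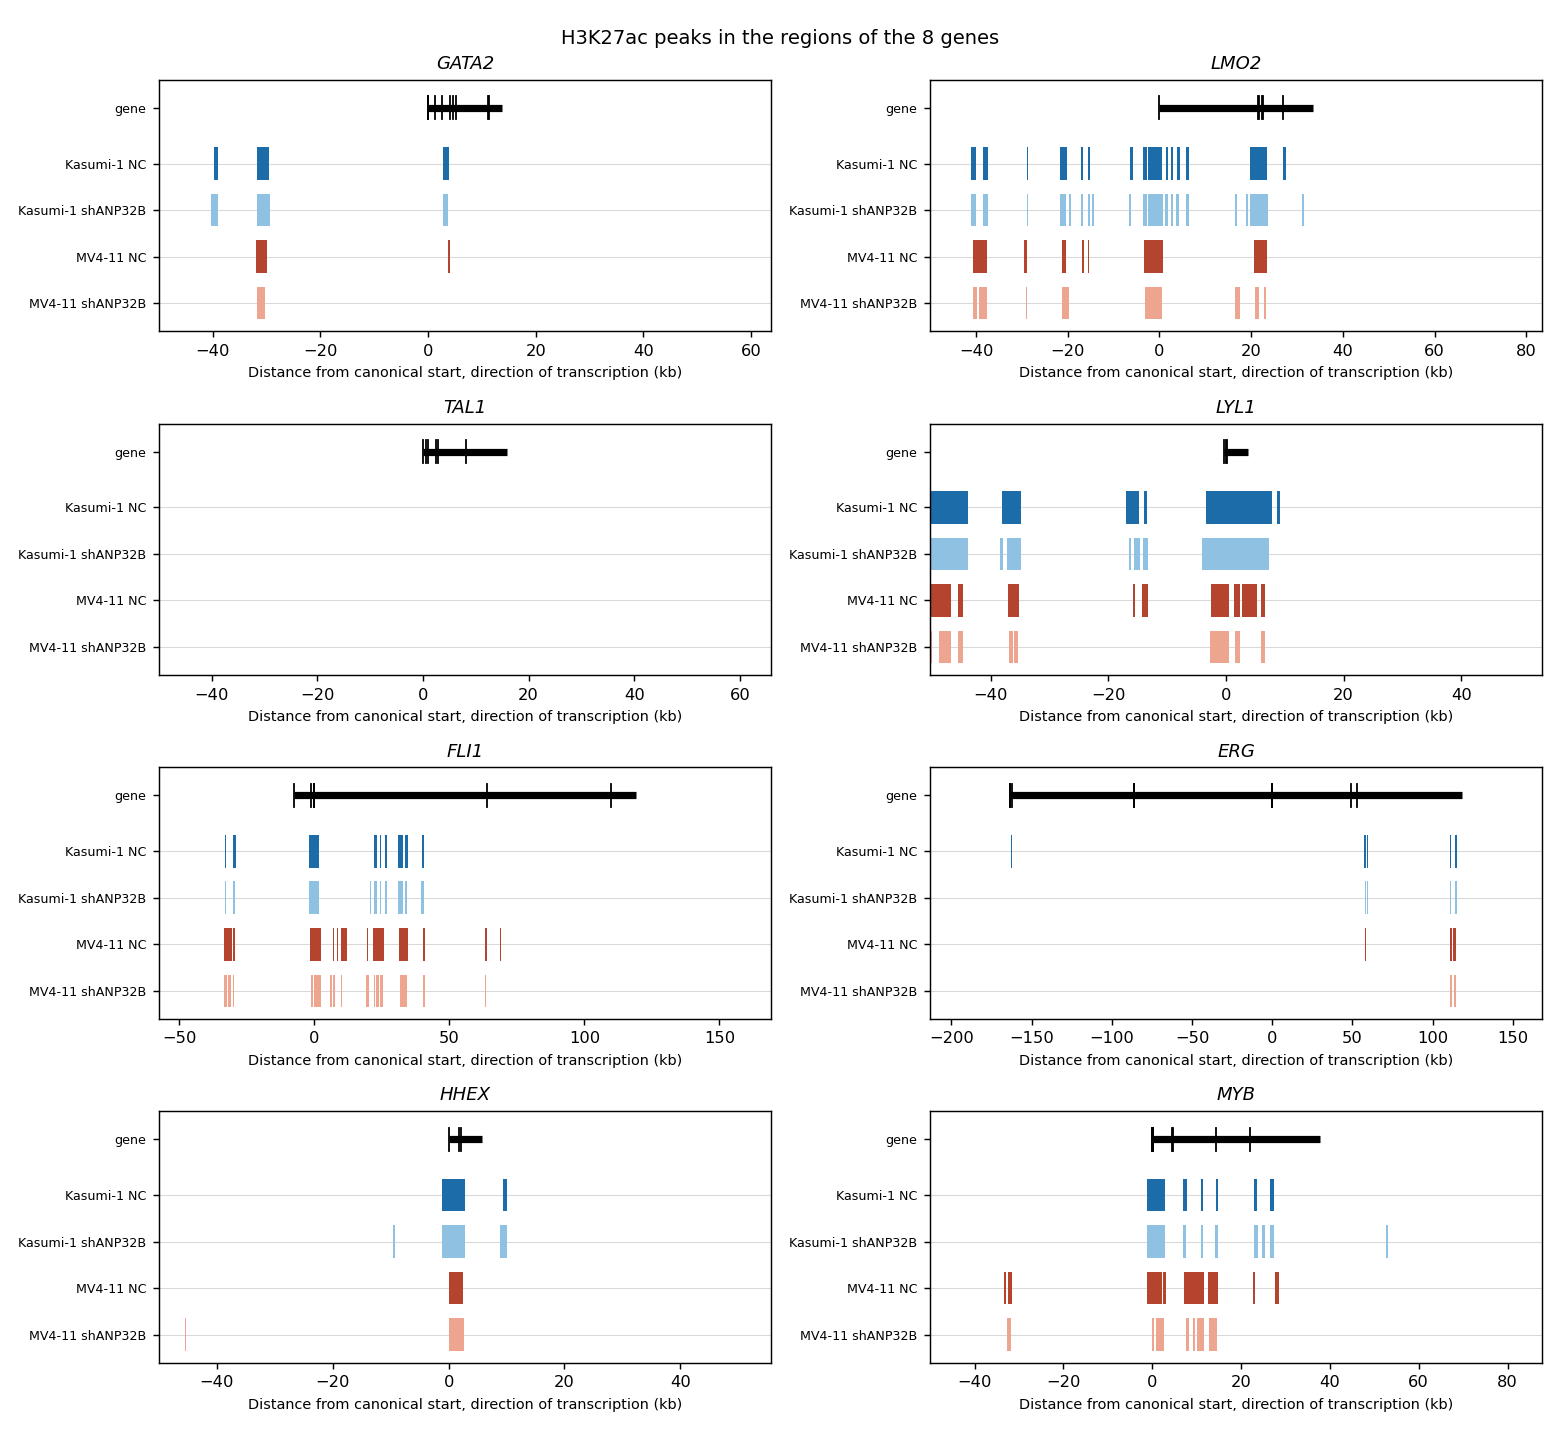
Positions of H3K27ac peaks in each gene's region, in kb from the canonical start in the direction of transcription. The black bar is the gene, ticks are annotated starts, and each coloured row is 1 library. TAL1 has no bar in any row, LYL1 has 1 bar of 11193 bases in Kasumi-1 NC over the gene, and FLI1 has bars in intron 1 that are in MV4-11 alone.

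FLI1 (ENSG00000151702, chr11:128686535-128813267, plus strand), an ETS factor of stem cells and megakaryocytes, had 9, 10, 12 and 16 peaks in its region. The covered bases were 11099, 11317, 20375 and 15647, and both MV4-11 libraries were above both Kasumi-1 libraries. The promoter element had 3696, 3710, 3839 and 3514 bases, a range narrower than that of the region. The difference between the lines lay in intron 1 and upstream. An element 10.9 kb past the canonical start had 2242 bases in MV4-11 NC, 643 after knockdown and 0 in Kasumi-1. The element at 23.7 kb, whose sequence is given above, had 1471 and 1386 bases in Kasumi-1 NC and shANP32B and 3916 and 2868 bases in MV4-11 NC and shANP32B. At 32.9 kb the covered bases were 2762, 2745, 3271 and 2412, so that MV4-11 shANP32B was the lowest there. An element 32.0 kb upstream had 427, 481, 2767 and 1984 bases. Of the 15 FLI1 elements, 6 were in all libraries, 4 in both MV4-11 libraries alone and 1 in both Kasumi-1 libraries alone.

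ERG (ENSG00000157554, chr21:38380027-38661780, minus strand), the ETS paralog of FLI1 and a factor of stem cell self-renewal, had 5, 5, 3 and 2 peaks with 4612, 4045, 3116 and 2433 covered bases. The canonical start had no covered base within 2500 bases in any library. The only peaks near an ERG start lay at the outermost starts, 162.6 kb before the canonical start, with 851 bases in Kasumi-1 NC, 373 after knockdown and 0 in MV4-11. The 2 elements in all libraries lay in intron 9 near the end of the gene. One had 1114, 1210, 1688 and 1476 bases and the other 843, 854, 1041 and 957 bases, higher in both MV4-11 libraries than in both Kasumi-1 libraries. Elements in intron 2 went the other way. At 57.9 kb the covered bases were 1310, 865, 387 and 0, and at 59.2 kb they were 494, 743, 0 and 0.

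HHEX (ENSG00000152804, chr10:92689955-92695647, plus strand) had 2, 3, 1 and 2 peaks with 4728, 5674, 2569 and 2811 covered bases. Its promoter element had 4022, 4087, 2569 and 2506 bases, wider in both Kasumi-1 libraries. An element 9.5 kb past the start, beyond the end of the gene, had 706 and 1228 bases in Kasumi-1 NC and shANP32B and 0 in MV4-11. The other peaks, of 359 bases upstream in Kasumi-1 shANP32B and of 305 bases further upstream in MV4-11 shANP32B, were each in 1 library.

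MYB (ENSG00000118513, chr6:135181308-135219173, plus strand) had 6, 8, 8 and 7 peaks with 7156, 8622, 13363 and 7813 covered bases. MV4-11 NC stood above the other three libraries, and MV4-11 shANP32B lay between the Kasumi-1 libraries. The promoter element had 3952, 3950, 3776 and 2291 bases and was lowest after knockdown in MV4-11. The largest difference between the lines was in an element of 4775 bases, with 1296, 1196, 4673 and 2679 covered bases. Its centre lay in intron 5, 9.4 kb past the start, but it also held coding exon bases. The element centred in intron 8, over the start of the antisense transcript MYB-AS1, had 557, 574, 2255 and 1949 bases and also held coding exon bases. An element 32.1 kb upstream had 949 and 894 bases in MV4-11 NC and shANP32B and 0 in Kasumi-1. The 8 of 11 MYB starts under a peak were equal in number in all libraries.

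**Figure D2:**
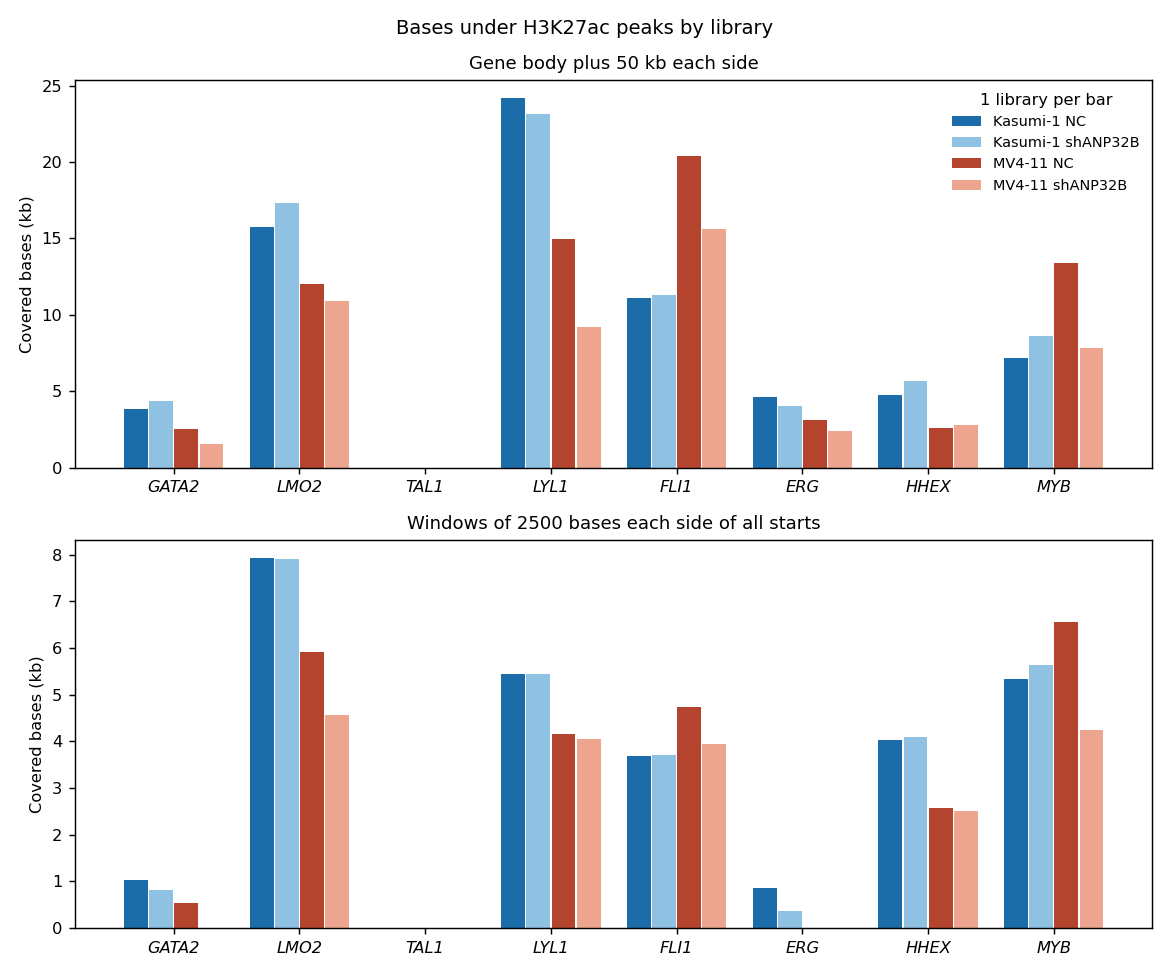
Bases under H3K27ac peaks (kb) in the region of each gene (upper panel) and in the windows around its starts (lower panel), 1 bar per library with no error bars. FLI1 and MYB are highest in MV4-11 NC, at 20375 and 13363 bases in the region, while the other covered genes are higher in Kasumi-1.

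The levels were then ordered per length. Per kb of region, LYL1 had 232, 222, 144 and 88.6 covered bases and LMO2 118, 130, 90.2 and 81.8. FLI1 had 49.0, 49.9, 89.9 and 69.0 bases per kb and MYB 51.9, 62.5, 96.9 and 56.7, and these neighbours exchanged places between libraries. HHEX had 44.7, 53.7, 24.3 and 26.6 bases per kb, above FLI1 in Kasumi-1 shANP32B alone, and GATA2 was next with 33.5, 38.1, 22.2 and 13.5. ERG, with the longest gene of the 8, had 12.1, 10.6, 8.16 and 6.37, below the median of all genes, which was 14.8, 14.9, 10.8 and 7.44. With no replicates, no distance in this order can be set against an error. In the windows alone, HHEX ranked higher among all genes, at the 97.9, 98.0, 97.2 and 98.1 percentile of bases per kb, near LMO2 at 97.1, 97.1, 97.6 and 97.2. MYB was at 88.4, 89.4, 96.7 and 94.6 and FLI1 at 80.3, 80.8, 92.7 and 93.5, a higher rank in MV4-11 for both. Fewer of all genes had a window peak there (51.2%, 49.0%, 40.6% and 33.7%), so these ranks do not compare coverage between libraries. In bases per kb of window, MYB had 271, 286, 333 and 215, lowest in MV4-11 shANP32B, and FLI1 had 175, 176, 224 and 187.

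**Figure D3:**
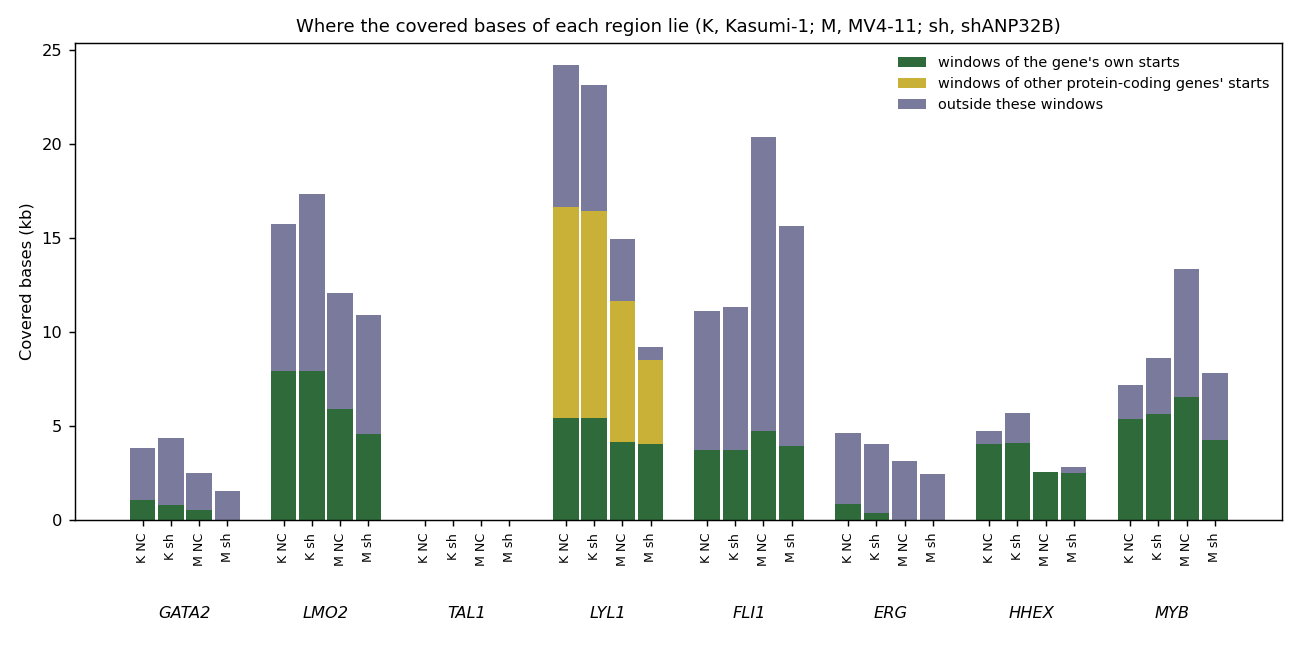
Covered bases (kb) of each region in each library, split into windows of the gene's own starts (green), windows of other protein-coding genes (yellow) and the rest (violet). The bars of FLI1 are mostly outside the windows, with 15647 of 20375 bases in MV4-11 NC, those of HHEX mostly inside, and only LYL1 has yellow parts.

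The first comparison asked what knockdown changed in Kasumi-1. In the regions, 0 of the 7 covered genes were at least 1.5-fold lower after knockdown and 0 at least 1.5-fold higher, where 6.77% and 4.72% of all covered genes were. The ratios of shANP32B to NC were 1.14 for GATA2 (0.792 in the gene body alone), 1.1 for LMO2, 1.2 for HHEX and 1.2 for MYB. They were 0.956 for LYL1, 0.877 for ERG, and 1.02 for FLI1, where scaling turned the ratio to 0.991 and counting only peaks of at least 1000 bases to 0.74. The median log2 ratio was 0.14 over the members and 0.02 over all covered genes, and the summed bases went from 71322 to 74432, a ratio of 1.04. In the TSS windows, 1 gene was at least 1.5-fold lower and 0 higher, beside 13.6% and 5.13% of all covered genes. This was ERG, with 851 bases in NC and 373 after knockdown, a ratio of 0.438 that rests on a single peak at the outermost starts. For LMO2, LYL1, FLI1, HHEX and MYB the window ratios lay between 0.997 and 1.06 (0.969 to 1.03 scaled), and for GATA2 it was 0.792. With only peaks of at least 1000 bases, ERG had 0 window bases in both Kasumi-1 libraries. The gene at least 1.5-fold lower was then GATA2, with 1037 bases in NC and 0 after knockdown.

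In MV4-11 the covered bases were lower after knockdown in the regions of 6 of the 7 covered genes, and of 5 after scaling. Most of all covered genes were lower too, with a median log2 ratio of -0.38, so this count does not set the members apart. The share of all genes that were lower after scaling was not computed. Of the members, 3 were at least 1.5-fold lower and 0 at least 1.5-fold higher, where 37.2% and 6.54% of all covered genes were. These 3 were MYB with a ratio of 0.585, GATA2 with 0.608 and LYL1 with 0.616. After scaling the ratios were 0.709, 0.737 and 0.747, and no member passed 1.5-fold. With 100 kb on each side GATA2 (0.707) was not 1.5-fold lower, while TAL1 (0.323) was. FLI1 had a ratio of 0.768 and ERG of 0.781. With only peaks of at least 1000 bases both passed 1.5-fold, at 0.604 and 0.541, while GATA2 (0.773) did not. For LMO2 the ratio was 0.906, which scaling turned to 1.1. For HHEX it was 1.09 (1.33 scaled), but it rested on the single peak of 305 bases far upstream and was 0.975 in the gene body alone and 0.926 with 100 kb on each side. The median log2 ratio was -0.38 over the members and -0.38 over all covered genes. The summed bases of the members went from 68955 to 50377, a ratio of 0.731.

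In the TSS windows of MV4-11, 2 genes were at least 1.5-fold lower and 0 higher after knockdown, beside 43.5% and 8.04% of all covered genes. One was MYB, with 6557 bases in NC and 4240 after knockdown, a ratio of 0.647 (0.784 scaled). The other was GATA2, whose single window peak of 540 bases in NC was absent after knockdown. The LMO2 ratio was 0.772 (0.936 scaled, and 0.522 with only peaks of at least 1000 bases). For FLI1 the ratio of 0.835 became 1.01 on scaling, for LYL1 0.972 became 1.18, and for HHEX 0.975 became 1.18, so that their direction depends on the scale. The summed window bases went from 24479 to 19312 (ratio 0.789), beside 28313 to 27976 (ratio 0.988) in Kasumi-1. The difference between the lines in the response was not tested, since each line gives 1 ratio.

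**Figure D4:**
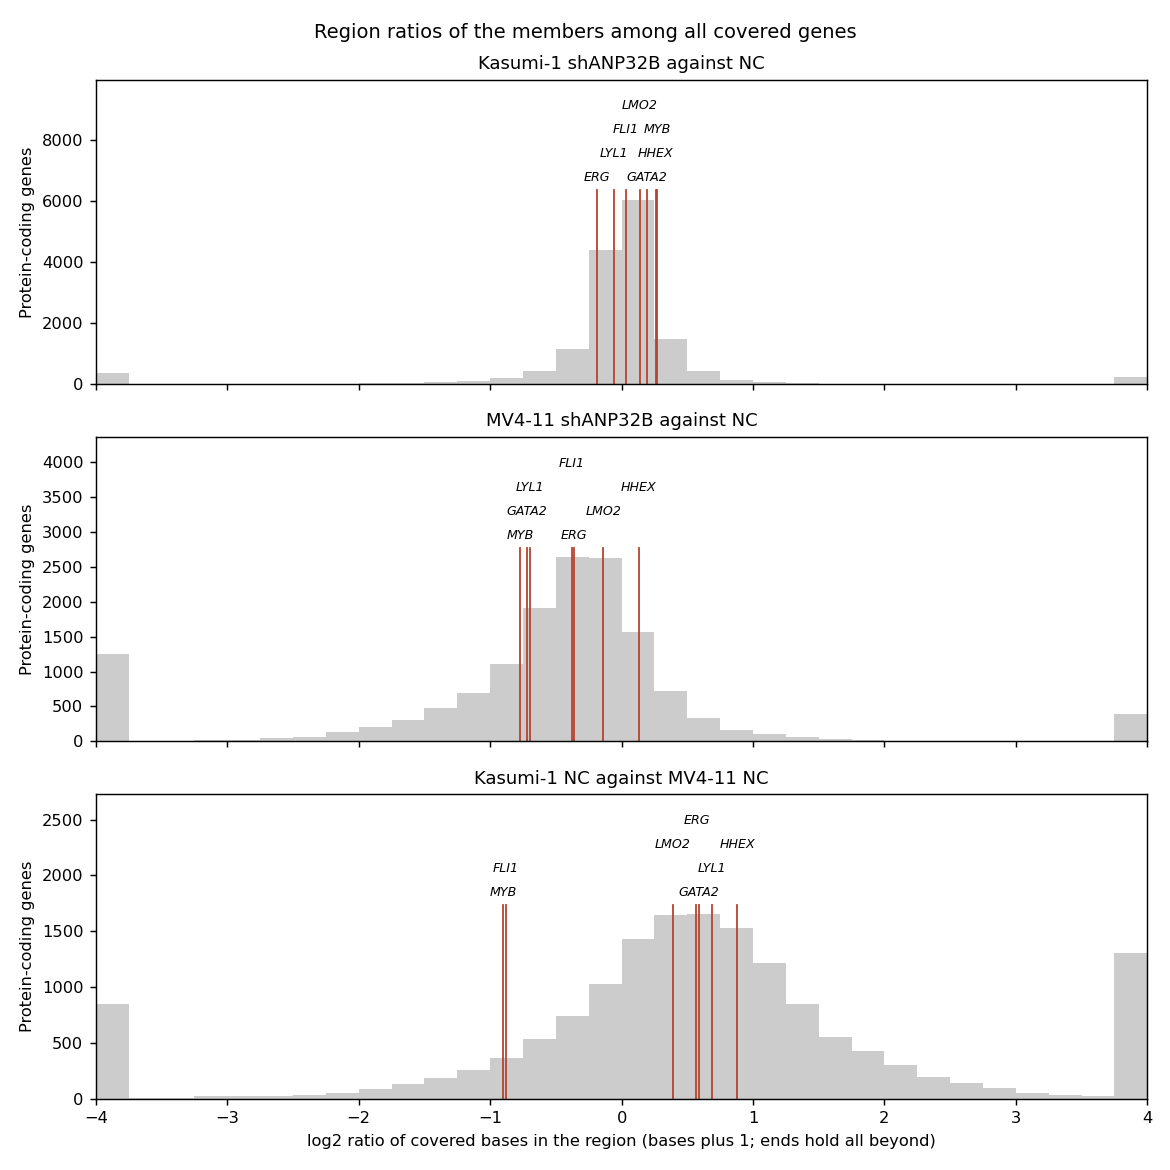
Log2 ratios of covered bases in the region for all covered protein-coding genes (grey histogram, number of genes) and for the 7 covered members (red lines), in 3 comparisons. In MV4-11 shANP32B against NC the members' median of -0.38 equals that of all genes, and in Kasumi-1 NC against MV4-11 NC the lines of FLI1 (-0.88) and MYB (-0.90) lie to the left of the others.

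The NC libraries of the lines were compared next. In the regions, 3 genes were at least 1.5-fold higher in Kasumi-1 (HHEX 1.84, LYL1 1.62 and GATA2 1.51) where 49.4% of all covered genes were, and 2 genes at least 1.5-fold lower (MYB 0.536 and FLI1 0.545) where 15.2% were. These ratios of Kasumi-1 NC to MV4-11 NC placed MYB at the 11.6 and FLI1 at the 11.8 percentile of covered genes, and both were lower still after scaling, at 0.457 and 0.464. The ratio of HHEX was 1.57 after scaling, while LYL1 (1.38) and GATA2 (1.29) were then under 1.5-fold. In the gene bodies alone HHEX (1.09) and LYL1 (1.39) were under 1.5-fold and LMO2 (2.11) was above it, and with 100 kb on each side GATA2 was at 1.42. In the main regions LMO2 had a ratio of 1.31 and ERG of 1.48, close to the threshold, and ERG was lower in Kasumi-1 (log2 ratio -0.17) when only peaks of at least 1000 bases were counted. The median log2 ratio was 0.57 over the members and 0.57 over all covered genes.

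In the TSS windows, 3 genes were at least 1.5-fold higher in Kasumi-1 NC and 0 lower, beside 58.8% and 7.99% of all covered genes. HHEX had a ratio of 1.57 (1.33 scaled) and GATA2 of 1.92 (1.64 scaled), and ERG was covered in Kasumi-1 alone. The ratios were 0.782 for FLI1 (0.667 scaled) and 0.815 for MYB (0.695 scaled, but 1.11 at the canonical start alone). Over both libraries of each line, both Kasumi-1 values were above both MV4-11 values in the regions of 5 genes, as in 64.7% of covered genes. The reverse held for FLI1 alone, as in 14.1% of covered genes. In the windows the counts were again 5 and 1, where 68.9% and 7.72% of covered genes did so. With 2 libraries of each line an exact two-sided permutation test could not go below 0.333, and none was run.

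Peaks were then matched within each line, where sharing at least 1 base with a peak of the other list counted as shared. In Kasumi-1, 44 of the 46 NC peaks in the member regions were shared (95.7%, Wilson 95% interval 85.5 to 98.8), beside 91.0% of the whole list, in which 9.0% were not. Of the 55 Kasumi-1 shANP32B peaks, 46 were shared (83.6%, 71.7 to 91.1), beside 86.8% of the list (13.2% not shared). In MV4-11, 30 of 42 NC peaks were shared (71.4%, 56.4 to 82.8) and 12 had no partner, beside 70.9% of the list (29.1% not shared). Of the 44 MV4-11 shANP32B peaks, 41 were shared (93.2%, 81.8 to 97.7), beside 82.3% of the list (17.7% not shared). The intervals cover counting error only, and peaks of 1 region are not independent. The 12 MV4-11 NC peaks without a partner had a median width of 424.5 bases, and the 30 shared ones 1868 bases. By gene, 3 of the 12 were at LYL1, 3 at MYB, 2 at LMO2, 2 at FLI1, 1 at GATA2 and 1 at ERG. Of the 9 Kasumi-1 shANP32B peaks without a partner, 5 were at LMO2, and their median width was 418 bases.

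When the peaks of the 4 lists were united, the member regions held 61 elements. Of these, 21 (34.4%) had a peak in all libraries, beside 32.2% of the 34053 elements of the genome. Both Kasumi-1 libraries alone had 11 elements (18.0%, genome 14.1%) and both MV4-11 libraries alone 5 (8.2%, genome 12.4%). The 5 MV4-11 elements were 4 of FLI1 and 1 of MYB. Kasumi-1 shANP32B alone had 8 elements (13.1%, genome 6.21%). Kasumi-1 NC alone had 2 (3.28%, genome 4.12%), MV4-11 NC alone 4 (6.56%, genome 9.42%) and MV4-11 shANP32B alone 2 (3.28%, genome 7.67%).

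Other genes of the same network were taken from a list of 26, of which 12 were partners of the complexes and 14 were other stem-cell factors. In their TSS windows 21 had a peak in at least 1 library, and GATA1, MECOM, PRDM16 and HLF were among those with none. In Kasumi-1, 1 gene was at least 1.5-fold lower after knockdown and 1 higher, beside 13.6% and 5.13% of all covered genes. ZFPM1, a cofactor of GATA proteins, had 1197 bases in NC and 554 after knockdown, and ZBTB16, a zinc finger repressor, 1493 and 2966. In MV4-11, 6 of the 21 were lower and 1 higher, beside 43.5% and 8.04% of all covered genes. Of the 6, BCL11A, a zinc finger repressor, had the most bases changed, with 12785 bases in NC and 7501 after knockdown. IKZF1, a lymphoid zinc finger factor, had 4040 and 1427 bases, LDB1, the bridge that binds LMO2, 5430 and 3237, and CBFB, the partner of RUNX1, 1309 and 0. ZFPM1 was also among the 6, with 673 bases in NC and 0 after knockdown. ZBTB16 was the higher one, with 0 and 500 bases. RUNX1 itself had 7870, 9318, 8676 and 8055 bases in the 4 libraries. The median log2 ratio of the list was 0.0 in Kasumi-1 and -0.34 in MV4-11, where all genes covered in the windows had 0.0 and -0.44.

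The gene whose pattern over the 4 libraries was most like that of each member was found by the Euclidean distance of log2(covered bases per kb of region + 1). It was PILRB for LMO2 (0.117), CATIP for LYL1 (0.109), PPT1 for FLI1 (0.16), ABAT for GATA2 (0.144), HEATR4 for ERG (0.143), ST6GALNAC2 for HHEX (0.0981) and CLEC2D for MYB (0.306). MYB thus had the most distant neighbour of the 7, and TAL1 was tied with 3974 genes at 0 throughout.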

How the data were processed

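Of 6 samples, the 4 H3K27ac libraries, 1 per group, were analysed, with groups taken from the labels. Replicates were merged by the authors before peak calling. The methods name Bowtie2, Picard, samtools and MACS2 at a q-value of 0.01, whereas the submitters' processing notes name Bowtie2 2.4.4 and MACS3 3.0, with hg38. The deposited lists give positions (counted from 1) and lengths in bases, with no read total, height or p-value, so the depth is unknown. The smallest peak was 357, 354, 289 and 275 bases wide in Kasumi-1 NC, Kasumi-1 shANP32B, MV4-11 NC and MV4-11 shANP32B.

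Covered bases in regions and TSS windows of 20033 protein-coding genes (GENCODE v44, chromosomes 1 to 22, X and Y) were computed with Python 3.11.15, numpy 2.4.6 and pandas 2.3.3, after tests on simulated data. Genes were called at 1.5-fold, among genes covered in either library. Log2 ratios added 1 base. With 1 library per group, no significance test was made. All 8 members were named, with ANP32B, and of the other network genes those past 1.5-fold in the TSS windows after knockdown, at most 4 in each direction by bases changed, and 1 listed gene is not reported here by name. Members and lists were chosen with earlier results of these data known. Alternatives changed the flank, windows, starts, peak widths, overlap and scaling.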

Additional observations from a re-analysis of the deposited data

Results flagged for a closer look

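Ratios after knockdown that went in opposite directions in the lines were singled out, as differences of the log2 ratio in Kasumi-1 minus that in MV4-11. In the regions the difference was 1.04 for MYB (0.27 in Kasumi-1 and -0.77 in MV4-11), 0.91 for GATA2 (0.19 and -0.72), 0.41 for FLI1 (0.03 and -0.38) and 0.28 for LMO2 (0.14 and -0.14). In the TSS windows it was 0.71 for MYB (0.08 and -0.63), 0.27 for FLI1 (0.01 and -0.26) and 0.06 for HHEX (0.02 and -0.04). With 1 library per group, none of these differences was tested. Division by total covered length turned the Kasumi-1 region ratio of FLI1 to 0.991 and the MV4-11 region ratio of LMO2 to 1.1, after which neither gene went in opposite directions in its region. The Kasumi-1 region ratio of GATA2 was 0.792 in the gene body alone, where both lines were then lower after knockdown, and that of MYB was 0.999 with only peaks of at least 1000 bases. At the canonical start alone the Kasumi-1 window ratio of MYB was 0.989. In the windows, division by total covered length turned the FLI1 ratios to 0.975 and 1.01 and the HHEX ratios to 0.987 and 1.18.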

How the results depend on the processing

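Of 102 summary values recomputed under alternative settings, 88 stayed within their range and 14 moved. The range was 1.5-fold for medians and counts, and the Wilson interval for shares of peaks. A change of direction was looked for only in values past 1.5-fold, which no member median was, so none could be found for the summary values. Of 197 values of single genes 189 stayed, 8 moved and 0 changed direction among those past 1.5-fold. Scaling by total covered length brought the members at least 1.5-fold lower in MV4-11 from 3 to 0 in the regions and from 2 to 1 in the TSS windows. It brought the members higher in Kasumi-1 NC than in MV4-11 NC from 3 to 1 in the regions, and the members lower from 0 to 1 in the windows. With the canonical start only, the members lower after knockdown were 0 in Kasumi-1 and 1 in MV4-11, and 0 were higher in Kasumi-1 NC. With only peaks of at least 1000 bases, 1 member (ERG) was lower in the Kasumi-1 regions and 4 (LYL1, FLI1, ERG and MYB) in the MV4-11 regions, and the shared peaks were 100% (Kasumi-1 NC), 100% (Kasumi-1 shANP32B), 90.5% (MV4-11 NC) and 100% (MV4-11 shANP32B). With an overlap of at least 50% of both peaks, 50% of MV4-11 NC and 47.7% of MV4-11 shANP32B peaks were shared. These alternatives were computed for the members only, with no share over all genes or whole lists at the same settings. The counts and shares under them therefore do not set the members apart from other genes. The cause of these shifts was not tested. The labels carry no replicate numbers for these libraries and replicates were merged, so that NC and shANP32B could be paired only by line. A fit across the lines with these pairs was not run. Unknown depth limits every value, since a narrower or missing peak can come with fewer reads as well as with less H3K27ac, and the 2 cannot be told apart.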
